A study of Mus musculus with 6 samples.

Results

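Integrins and the adaptor proteins of focal adhesions were described in 2 mouse cell lines, 2H-11 and SVEC4-10. The set held 32 genes, all found in the deposited table of 34724 genes by their symbols. It comprised 13 integrin alpha subunits, 8 integrin beta subunits and 11 focal adhesion adaptors. Both lines are labelled as SV40-transformed cells of adult C3H/HeJ mouse axillary lymph node, and the labels name 2H-11 as tumor and SVEC4-10 as normal endothelial cells. Polyadenylated RNA was sequenced directly on a nanopore instrument, with 3 libraries per line and no treatment named. With 1 line under each label, being tumor or normal cannot be told apart from other properties of that line. Separate cultures are not mentioned for the libraries, and the p-values then reflect library-to-library spread alone, possibly of a technical kind. In bulk RNA, fewer cells with a transcript and less of it per cell cannot be told apart.

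Integrins are cell surface receptors made of an alpha and a beta subunit, and neither subunit reaches the surface in quantity without the other. The alpha subunit largely sets the ligand, such as a collagen, a laminin or the RGD sequence of fibronectin and vitronectin, and the beta tail binds talin inside the cell. Talin recruits vinculin. Focal adhesion kinase, paxillin, p130Cas and tensins also gather at focal adhesions, and together these proteins join the receptor to actin and to Src signalling. In blood vessels the alpha5 beta1 and alphav beta3 integrins are known from growing vessels, and alpha6 beta1 and alpha3 beta1 from attachment to the laminins of the basement membrane.

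The libraries held from 3628400 to 16798666 counts each, and SVEC4-10 replicate 3 held 68.0% of the counts of its line. Levels are CPM, the read count scaled to the counted reads of its library, given as the mean ± SD over 3 libraries. Of 10 defining endothelial genes, 7 had no count in 2H-11 and 8 had none in SVEC4-10. Their summed level was 0.172 to 0.731 CPM (2H-11) and 0.234 to 0.551 CPM (SVEC4-10), so the endothelial label was not matched by these transcripts in either line. Kdr was the most abundant of them, at 0.224 ± 0.246 and 0.303 ± 0.280 CPM. The sum of 7 mesothelial markers was 58.5 to 72.4 CPM (2H-11) and 3397 to 4292 CPM (SVEC4-10). Of the 6 tested, 5 were lower in 2H-11 and 1, Krt19, was higher. Upk3b was the most abundant in SVEC4-10, at 1402 ± 407 CPM, beside 0.644 ± 0.248 CPM in 2H-11. The sum in 2H-11 was mostly Msln, at 40.0 ± 2.70 and 674 ± 132 CPM in 2H-11 and SVEC4-10, and Krt19, at 22.0 ± 7.08 and 0.196 ± 0.243 CPM. The sum of 10 fibroblast and mural markers was 1034 to 1261 CPM (2H-11) and 823 to 1357 CPM (SVEC4-10). Although the sums overlapped, 6 of the 8 tested were higher in 2H-11 and 1, Dcn, was lower. Col1a2 was the most abundant in 2H-11, at 549 ± 48.4 and 201 ± 99.3 CPM in the same order, and Col3a1 in SVEC4-10, at 276 ± 19.5 and 340 ± 146 CPM. Msln, Krt19, Dcn and Col3a1 were named after their values were seen. The part of these markers in the integrin results was not tested. The 7 epithelial markers summed to 6.51 to 9.5 and 9.41 to 17.1 CPM, led by Krt14 at 7.13 ± 0.952 and 8.56 ± 2.51 CPM. Of the 2 tested, 1 was lower in 2H-11 and 1 did not pass. Their median log2 fold change of -3.86 is only the midpoint of these 2 genes and does not describe the list.

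Of the 32 genes, 20 had enough counts to be tested and 12 did not. Relative to SVEC4-10, 8 of the 20 were lower in 2H-11 and 6 higher, at an adjusted p under 0.05 (quasi-likelihood test of edgeR with Benjamini-Hochberg adjustment over all 13187 genes tested). These 14 genes were 70% of those tested, where 36.2% of all genes tested were called, 20.1% higher and 16.2% lower. Among tested genes with Ensembl identifiers, to which all 32 belong, 31.8% were called, with 13% higher and 18.8% lower, so the balance of directions differed from that over all genes. In 13 of the 20 the libraries of the lines did not overlap, where 46.8% of all genes tested did so. The median log2 fold change of the 20 was -0.10, beside 0.00 over all genes tested. The higher genes were Itga5, Itga2b, Itgb5, Itgb7, Ptk2 and Pxn. The lower genes were Itga1, Itga3, Itga6, Vcl, Zyx, Tns1, Tns3 and Bcar1.

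**Figure D1:**
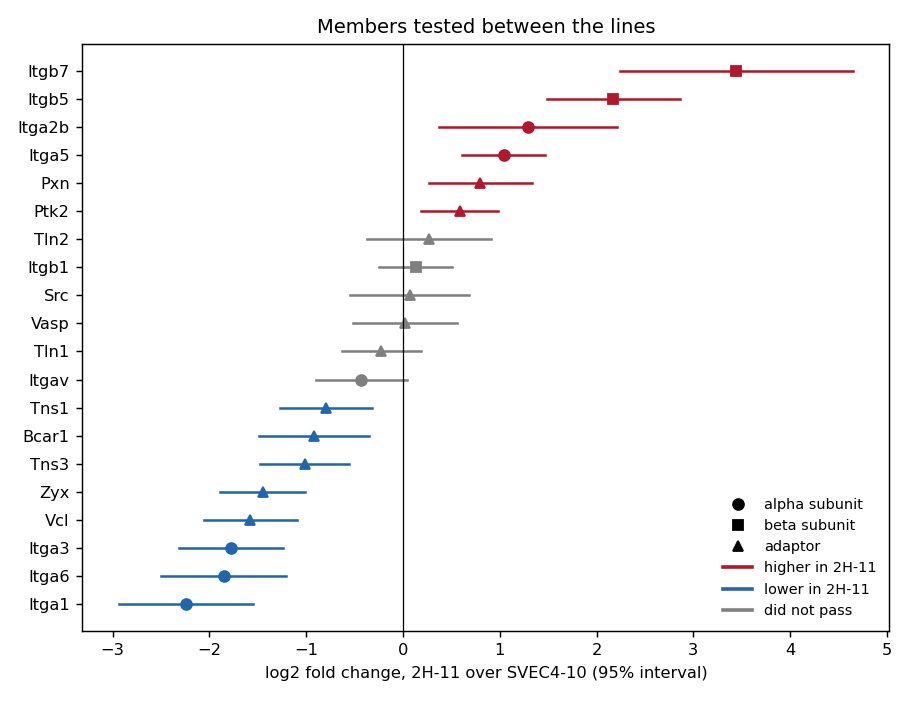
Log2 fold change of 2H-11 over SVEC4-10 for the 20 members tested, with 95% intervals from the edgeR fit. Circles are alpha subunits, squares beta subunits and triangles adaptors, and colour gives the direction of the 14 calls, from Itga1 at -2.24 to Itgb7 at 3.44, with the 6 members that did not pass in grey.

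Itgb1 supplied most beta subunit transcripts in both lines and did not pass the test. This gene encodes the beta1 subunit, which pairs with 12 alpha subunits (chromosome 8, 128685654 to 128733200 in GRCm38). It stood at 188, 192 and 237 CPM in 2H-11 replicates 1 to 3 and at 153, 185 and 189 CPM in SVEC4-10 replicates 1 to 3, an order kept for all members. The ranges of the lines overlapped. The log2 fold change was 0.13, with a 95% interval from -0.25 to 0.51 (adjusted p = 0.612), which leaves room for a ratio between 0.844 and 1.42.

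The other tested beta subunits were higher in 2H-11. Itgb5 encodes beta5, a partner of alphav in binding vitronectin (chromosome 16, 33829665 to 33949338). Its level was 15.1, 14.6 and 28.5 CPM in the 2H-11 libraries and 4.44, 2.76 and 4.58 CPM in those of SVEC4-10. Every 2H-11 library lay above every SVEC4-10 library, and replicate 3 was the highest of 2H-11. The gene was 4.51-fold higher in 2H-11 (log2 fold change 2.17, SE 0.33, adjusted p = 3.53e-05).

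Itgb7 encodes beta7, best known from lymphocytes that home to the gut (chromosome 15, 102215995 to 102231944). Its counts were few, 53 over the 2H-11 libraries and 7 over those of SVEC4-10. It stood at 2.23, 3.17 and 4.81 CPM in 2H-11 and at 0.467, 0 and 0.298 CPM in SVEC4-10, with no overlap. The gene was 10.9-fold higher in 2H-11, with a 95% interval from 4.73 to 25.1 (log2 fold change 3.44, SE 0.57, adjusted p = 0.000103). It passed the count filter through the 2H-11 libraries alone, where it was high. With a stricter filter, after thinning or without 2H-11 replicate 3 it was not tested. Beta7 is known to pair with alpha4 and alphaE, and neither partner was abundant. Itga4 had 3 counts over 2H-11 and 5 over SVEC4-10, and Itgae, the most abundant of the 5 leukocyte alpha genes outside the set, was at 0.396 ± 0.182 and 0.268 ± 0.204 CPM. Itgad, Itgam and Itgax had no count in any library. The pan-leukocyte gene Ptprc had 0 counts in 2H-11 and 2 in SVEC4-10. The 7 leukocyte markers summed to 15.4 to 19.2 CPM (2H-11) and 7.44 to 13.1 CPM (SVEC4-10), most of it Cd14, at 14.8 ± 1.46 and 9.0 ± 3.14 CPM. Rarg, the next coding gene upstream of Itgb7 on its strand at a distance of 2994 bases, was at 16.1 ± 5.21 and 11.9 ± 2.76 CPM, which did not pass (adjusted p = 0.323).

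The remaining 5 beta subunits were too rare to be tested. Itgb3, the beta3 subunit of platelets and growing vessels, was at 2.05, 2.19 and 2.92 CPM in 2H-11 and at 0.701, 0.551 and 0.655 CPM in SVEC4-10, with no overlap. Its summed counts of 37 and 16 gave a ratio of 3.73 (95% counting interval 2.03 to 7.19). Itgb4, the beta4 subunit of hemidesmosomes, had summed counts of 19 and 3, a ratio of 10.2 (3.01 to 53.9). Without SVEC4-10 replicate 3 the line had 1 Itgb4 count and the interval ran from 1.56 to 407.8. Itgb8, a beta subunit that activates TGF-beta with alphav, had no count in 2H-11 and 20 in SVEC4-10, of which replicate 2 held 0. It was 4.13-fold lower in 2H-11 with the 0 counts taken as 3 over the line (0.196 CPM) and the 20 taken as exact. That ratio was 2.68 with 2H-11 replicate 1 left out and 2.56 with 2H-11 replicate 3 left out. Itgb2, the beta subunit of leukocyte integrins, had a single count in 2H-11, against 17 in SVEC4-10, and was 10.5 times more frequent in SVEC4-10 (1.65 to 440). That ratio was 6.83 without 2H-11 replicate 1 (1.07 to 285.6) and 6.52 without 2H-11 replicate 3 (1.02 to 272.6). Without 2H-11 replicate 2, which held the single count, Itgb2 was 2.57-fold lower in 2H-11 with 0 taken as 3 counts. Without SVEC4-10 replicate 3 the ratio was 5.81, with an interval from 0.466 to 304.9 that includes equality. Itgb6, an epithelial subunit, had 1 count in all.

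Among the alpha subunits, the most abundant, Itga5, was higher in 2H-11, as was Itga2b, and the laminin receptors Itga3 and Itga6 and the collagen receptor Itga1 were lower. Itga5 encodes alpha5, the partner of beta1 in the main fibronectin receptor (chromosome 15, 103344286 to 103366763). It stood at 134, 126 and 133 CPM in 2H-11 and at 81.3, 41.1 and 58.2 CPM in SVEC4-10. The 2H-11 libraries lay close together and above all of SVEC4-10, whose libraries were spread over a wider range. The gene was 2.05-fold higher in 2H-11 (log2 fold change 1.04, SE 0.20, adjusted p = 0.000539).

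Itga3 encodes alpha3, a laminin receptor with beta1 (chromosome 11, 95044474 to 95076801). Its level was 11.2, 9.74 and 12 CPM in 2H-11 and 45.8, 22.3 and 38.5 CPM in SVEC4-10, with no overlap. It was 3.43-fold lower in 2H-11 (log2 fold change -1.78, SE 0.25, adjusted p = 1.94e-05). Itga6 encodes alpha6, a laminin receptor with beta1 or beta4 (chromosome 2, 71745616 to 71858416). Its level was 5.77, 7.79 and 3.26 CPM in 2H-11 and 15.2, 17.4 and 22.3 CPM in SVEC4-10. Again every SVEC4-10 library lay higher, and the gene was 3.61-fold lower in 2H-11 (log2 fold change -1.85, SE 0.31, adjusted p = 0.000102).

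Itga1 encodes alpha1, a receptor for basement membrane collagen (chromosome 13, 114953096 to 115101964). It stood at 3.16, 1.95 and 2.23 CPM in 2H-11 and at 14, 8.54 and 10.6 CPM in SVEC4-10, with no overlap. It was 4.72-fold lower in 2H-11 (log2 fold change -2.24, SE 0.33, adjusted p = 2.75e-05), the largest decrease among the members tested. Pelo lies within the Itga1 locus on the same strand, so reads of the pair could be shared. Pelo itself was at 11.9 ± 2.20 and 11.2 ± 2.63 CPM, which did not pass (adjusted p = 0.994).

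Itga2b encodes the alphaIIb subunit of the platelet fibrinogen receptor (chromosome 11, 102453297 to 102470122). Its level was 4.47, 5.36 and 10.3 CPM in 2H-11 and 4.67, 2.20 and 1.67 CPM in SVEC4-10. The lines overlapped, since SVEC4-10 replicate 1 lay above 2H-11 replicate 1. The gene was 2.44-fold higher in 2H-11 (log2 fold change 1.29, SE 0.44, adjusted p = 0.0276 by edgeR), and this call did not hold in every alternative. It did not pass without 2H-11 replicate 3 (log2 fold change 0.79, adjusted p = 0.189), without SVEC4-10 replicate 2 (1.18, adjusted p = 0.0809) or without SVEC4-10 replicate 3 (0.83, adjusted p = 0.20), nor with DESeq2 (1.17, adjusted p = 0.0800). Over all 18 alternatives its adjusted p ran from 0.00782 to 0.495. Of 7 platelet and megakaryocyte genes, 4 had no count in 2H-11 and 5 had none in SVEC4-10, Pf4 and Gp9 among them. The list summed to 1.12 to 2.92 CPM (2H-11) and 0 to 0.119 CPM (SVEC4-10), led by Ppbp at 1.43 ± 0.301 and 0.0198 ± 0.0344 CPM. Gpatch8, the coding gene 5793 bases upstream on the same strand, was at 22.0 ± 8.95 and 23.5 ± 5.76 CPM (adjusted p = 0.609).

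Itgav encodes alphav, which pairs with 5 beta subunits and binds RGD ligands. It stood at 21.4, 19.5 and 24.9 CPM in 2H-11 and at 36.2, 22.0 and 25.8 CPM in SVEC4-10. The lines overlapped and the gene did not pass (log2 fold change -0.43, 95% interval -0.90 to 0.05, adjusted p = 0.152).

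The other 7 alpha subunits were not tested. Itga2, Itga8 and Itga9, receptors for collagen, nephronectin and tenascin, had no count in any library, which allows up to 0.196 CPM (2H-11) and 0.121 CPM (SVEC4-10). Itga4, Itga7, Itga10 and Itga11 were between 0 and 2.06 CPM in each library. Itga11, a collagen receptor of fibroblasts, had 6 counts in 2H-11 and 0 in SVEC4-10, or 3.23-fold higher with the 0 taken as 3 counts. Without SVEC4-10 replicate 3 that ratio was 1.03. Summed counts of Itga7, a laminin receptor of muscle, were 21 and 18, a ratio of 1.88 (95% counting interval 0.955 to 3.75), which was 2.63 without 2H-11 replicate 1 (1.3 to 5.31). In a fit without a filter on low counts, 5 of the 12 untested members passed, with Itgb3, Itgb4 and Itga11 higher and Itgb2 and Itgb8 lower in 2H-11 (edgeR adjusted p from 0.00245 to 0.0451).

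**Figure D2:**
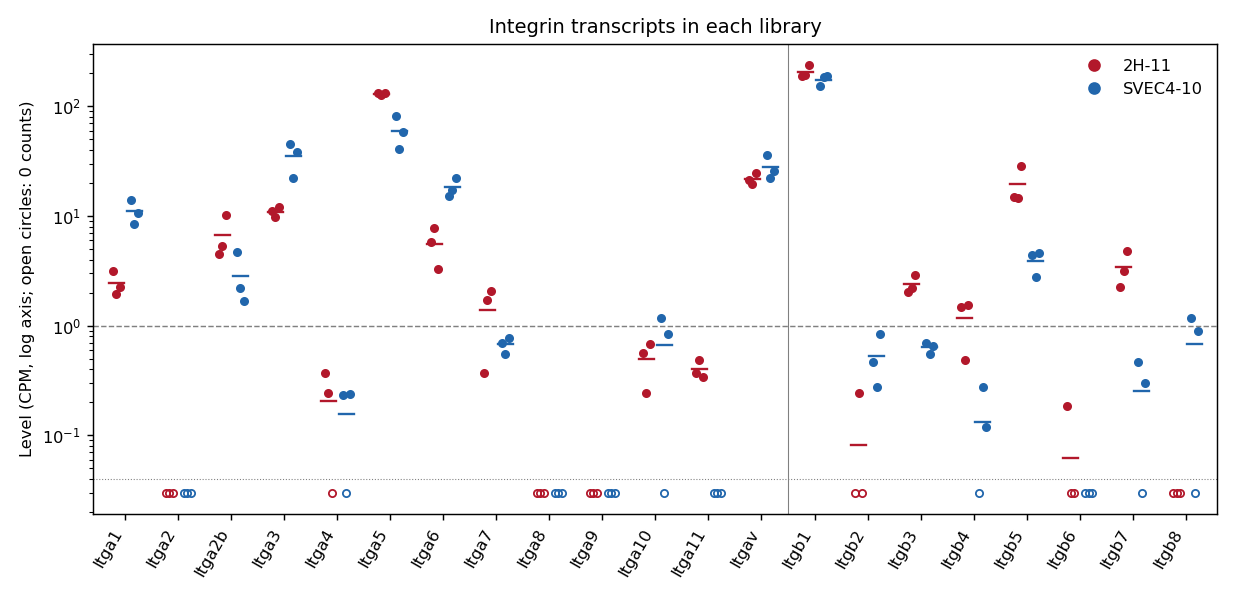
CPM of the 21 integrin genes in each library on a log axis, alpha subunits left and beta subunits right of the line, with short bars at the mean of 3 libraries, open circles for libraries with 0 counts and a dashed line at 1 CPM. Itga5 and Itgb1 lie highest in both lines, Itga1, Itga3 and Itga6 lie lower in 2H-11, and Itgb5 and Itgb7 lie higher there.

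Shares within the alpha and the beta family do not depend on scaling between libraries. Direct RNA reads start at the poly(A) tail, and each read stands for a molecule whatever its length. Long transcripts can be lost more often, and division by length does not correct for that loss. The order per kilobase of the longest annotated transcript is given only to show how far it depends on the scale. Itga5 held 73.7%, 72.9% and 70.4% of alpha subunit counts in 2H-11 and 40.8%, 36.0% and 36.6% in SVEC4-10. Itga3 held 6.05% ± 0.383 in 2H-11 and 22.3% ± 2.41 in SVEC4-10 (SD, n = 3). For Itga6 the shares were 3.14% ± 1.39 and 12.3% ± 4.09, for Itga1 1.35% ± 0.343 and 7.06% ± 0.411, and for Itgav 12.1% ± 1.000 and 17.9% ± 1.57. The laminin-binding subunits Itga3, Itga6 and Itga7 together made up 9.55%, 11.1% and 9.19% in the 2H-11 libraries and 30.9%, 35.3% and 38.8% in those of SVEC4-10. The collagen-binding subunits made up 1.84% ± 0.370 and 7.43% ± 0.220. Subunits of RGD receptors made up 88.1% ± 0.944 and 57.5% ± 3.71.

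On the beta side, Itgb1 held 89.9%, 90.3% and 86.2% of counts in 2H-11 and 95.5%, 98.0% and 96.2% in SVEC4-10. Itgb5 held 8.15% ± 1.94 and 2.19% ± 0.664. None of these shares overlapped between the lines. In an exact two-sided permutation test over libraries each of the 9 subunits tested gave p = 0.1, also after adjustment over the 9, and 0.1 is the smallest p that 3 libraries against 3 allow. Within a family a larger share of a subunit lowers the shares of the others, so the 9 results are not separate. Itgav and Itgb1 had lower shares in 2H-11, although neither passed the test of its level. The summed level of all alpha subunits was 181 ± 7.73 CPM (2H-11) and 157 ± 42.7 CPM (SVEC4-10), with overlap (exact permutation p = 0.5). For the beta subunits it was 232 ± 36.7 and 182 ± 18.8 CPM (exact permutation p = 0.1).

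Per kilobase, Itga5 was again the leading alpha subunit, at 29.6 CPM per kilobase in 2H-11 and 13.6 in SVEC4-10. In 2H-11 it was followed by Itgav at 3.11 and Itga3 at 2.26 CPM per kilobase. In SVEC4-10 it was followed by Itga3 at 7.31, Itga6 at 4.24 and Itgav at 3.97, whereas on the plain CPM scale Itgav, at a mean of 28.0, stood before Itga6, at 18.3. Itgb1 led the beta subunits on this scale too, at 53.9 and 46.0 CPM per kilobase.

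**Figure D3:**
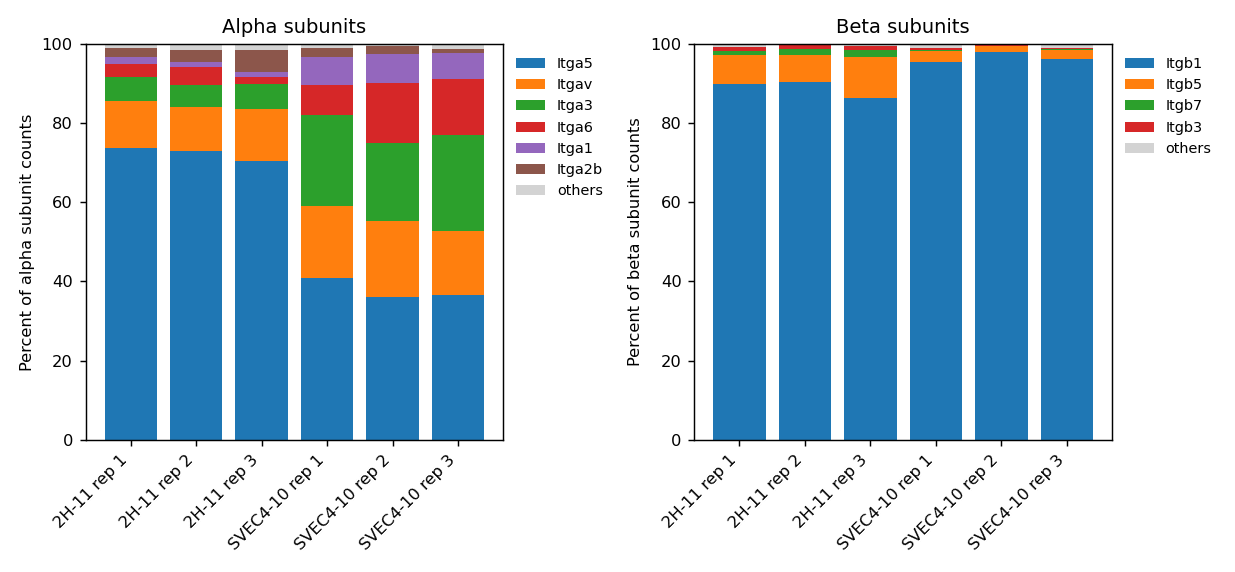
Percent of the counts of all 13 alpha subunits (left) and all 8 beta subunits (right) held by each gene in each library, as stacked bars from 0 to 100. Itga5 fills 70.4% to 73.7% of the 2H-11 bars and 36.0% to 40.8% of the SVEC4-10 bars, and Itgb1 fills at least 86.2% of every beta bar.

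The pairs that the transcripts would allow were then counted. Of 24 known mouse alpha-beta pairs, those with both transcripts at 1 CPM or more in every library of a line were taken as counted. Proteins were not measured, and a transcript does not show a receptor at the surface. By this rule 8 pairs were counted in 2H-11 and 6 in SVEC4-10, and all 6 of SVEC4-10 were among the 8. The shared pairs were Itgb1 with Itga1, Itga3, Itga5, Itga6 and Itgav, and Itgb5 with Itgav. In 2H-11 the rule added Itgb3 with Itgav, a vitronectin receptor, and Itgb3 with Itga2b, the platelet fibrinogen receptor. Itgb3 was the rarer transcript of both, at a mean of 2.39 CPM (2H-11) and 0.636 CPM (SVEC4-10). The order of the lines depended on the threshold, with 8 pairs in 2H-11 and 9 in SVEC4-10 at 0.5 CPM, 4 and 5 at 5 CPM, and 3 and 4 at 10 CPM. The pair counts of the lines were not tested.

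The amount of a receptor cannot be read from transcript levels here, since proteins were not measured and Itgb1 and Itgav are shared among pairs. The rarer transcript of a pair is named with its mean level. For the fibronectin receptor it was Itga5, at a mean of 131 CPM (2H-11) and 60.2 CPM (SVEC4-10). For alphav beta5 it was Itgb5, at 19.4 and 3.93 CPM, whereas for alphav beta1 it was Itgav, at 21.9 and 28.0 CPM. For the laminin receptors alpha3 beta1 and alpha6 beta1 the alpha subunit was rarer, at 11 and 5.61 CPM in 2H-11 and 35.6 and 18.3 CPM in SVEC4-10. Itga6 with Itgb4, the hemidesmosome receptor, did not reach the rule, with Itgb4 at a mean of 1.17 and 0.132 CPM. In total 16 pairs were counted in neither line, among them every pair of Itgb2, Itgb6, Itgb7 and Itgb8.

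**Figure D4:**
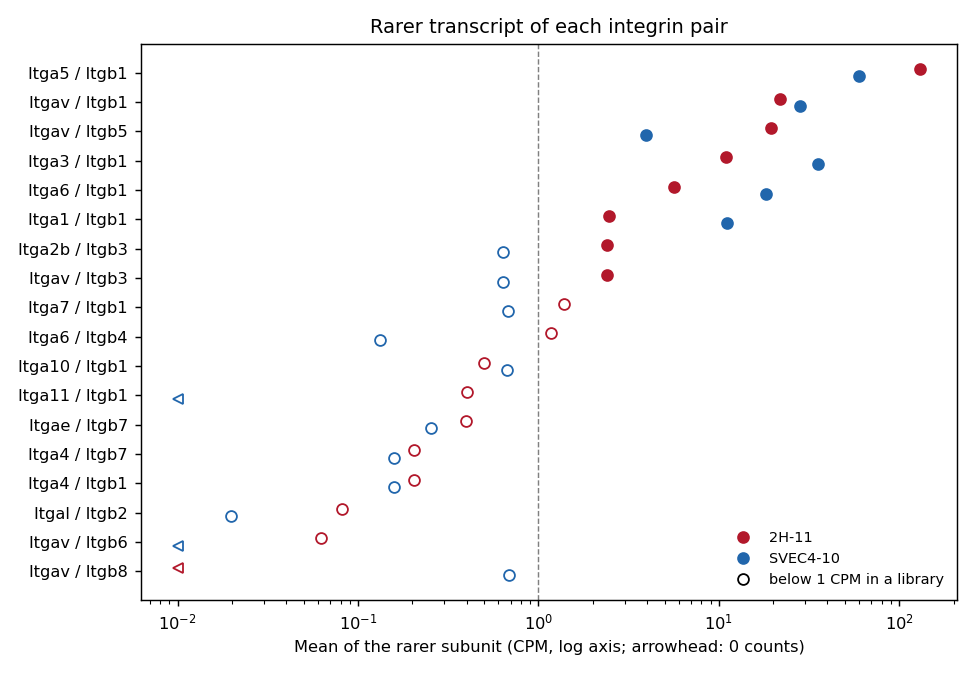
Mean CPM of the rarer of the 2 transcripts of each alpha-beta pair on a log axis, for pairs with at least 1 count of the rarer subunit in either line. Filled points are pairs with both transcripts at 1 CPM or more in every library of the line, which holds for 8 pairs in 2H-11 and 6 in SVEC4-10, and arrowheads mark 0 counts.

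Promoter sequences are shown for the 4 integrins that were higher in 2H-11, since they moved in the same direction. They are the RefSeq windows of GRCm38.p6, from 250 bases before to 50 bases after the start site, 5′ to 3′ on the gene's strand, and 24 of the 32 members had an entry. Capitals mark matches on either strand to 4 motifs, namely the CArG box bound by SRF, CATTCC bound by TEAD factors, TGANTCA bound by AP-1 and the GC box GGGCGG bound by Sp1. Of 32851 windows of 300 bases in the same table, 1.63% held a CArG box, 14.7% CATTCC, 7.81% TGANTCA and 35.7% GGGCGG. Itga5 lies on the minus strand at chr15:103366742-103367041 and Itgb5 on the plus strand at chr16:33829415-33829714. Itgb7, at chr15:102231886-102232185, and Itga2b, at chr11:102469834-102470133, lie on the minus strand.
Itga5: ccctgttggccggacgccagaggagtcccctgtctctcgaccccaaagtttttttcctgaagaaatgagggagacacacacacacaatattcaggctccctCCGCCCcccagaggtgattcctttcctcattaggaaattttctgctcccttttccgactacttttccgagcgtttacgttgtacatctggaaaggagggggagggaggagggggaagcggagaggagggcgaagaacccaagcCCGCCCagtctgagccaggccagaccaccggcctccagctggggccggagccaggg
Itgb5: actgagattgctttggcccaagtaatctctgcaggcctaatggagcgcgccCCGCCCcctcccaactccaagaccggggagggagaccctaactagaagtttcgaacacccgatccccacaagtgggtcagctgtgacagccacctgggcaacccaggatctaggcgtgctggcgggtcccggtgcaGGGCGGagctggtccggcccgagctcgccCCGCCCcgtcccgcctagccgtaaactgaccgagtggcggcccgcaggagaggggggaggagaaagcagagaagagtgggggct
Itgb7: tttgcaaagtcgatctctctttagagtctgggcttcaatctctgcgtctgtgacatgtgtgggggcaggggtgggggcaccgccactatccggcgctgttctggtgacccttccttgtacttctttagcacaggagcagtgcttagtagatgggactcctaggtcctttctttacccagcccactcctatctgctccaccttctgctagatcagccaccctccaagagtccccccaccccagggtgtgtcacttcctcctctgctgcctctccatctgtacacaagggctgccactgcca
Itga2b: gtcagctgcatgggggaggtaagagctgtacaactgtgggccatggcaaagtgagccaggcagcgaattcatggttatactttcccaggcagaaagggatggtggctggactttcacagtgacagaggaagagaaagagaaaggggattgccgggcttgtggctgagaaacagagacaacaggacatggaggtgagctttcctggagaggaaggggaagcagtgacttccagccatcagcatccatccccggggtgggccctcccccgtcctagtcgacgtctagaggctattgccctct
The Itga5 window held 2 GC boxes and the Itgb5 window 3, and neither held a match to the other motifs. The Itgb7 and Itga2b windows held 0 matches to the 4 motifs. A match is a run of letters and not a measured site.

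The 11 adaptors were all tested, with 2 higher and 5 lower in 2H-11 (63.6% called, beside 36.2% of all genes tested). Their summed level was 417 ± 41.9 CPM (2H-11) and 644 ± 80.2 CPM (SVEC4-10), with no overlap (exact permutation p = 0.1). Most of this difference lay in Vcl, at means of 56.3 and 156 CPM, and Zyx, at 76.2 and 195 CPM. The sum therefore does not describe the adaptors as a set, of which 4 did not pass. Vcl encodes vinculin, which binds talin and actin under load (chromosome 14, 20929398 to 21033676). It stood at 73.3, 62.6 and 33.0 CPM (2H-11) and 160, 142 and 166 CPM (SVEC4-10). All SVEC4-10 libraries lay higher, and 2H-11 replicate 3 was the lowest of all. Vcl was 2.98-fold lower in 2H-11 (log2 fold change -1.58, SE 0.23, adjusted p = 2.21e-05).

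Zyx encodes zyxin, a LIM protein that moves to strained actin and recruits VASP (chromosome 6, 42349630 to 42360213). Its level was 79.8, 60.2 and 88.6 CPM (2H-11) and 155, 190 and 239 CPM (SVEC4-10), with no overlap. It was 2.73-fold lower in 2H-11 (log2 fold change -1.45, SE 0.21, adjusted p = 2.17e-05). Vasp, its actin-elongating partner, was at 21.6, 25.1 and 32.3 CPM in 2H-11 and at 30.9, 27.6 and 16.4 CPM in SVEC4-10. The Vasp libraries overlapped and it did not pass (log2 fold change 0.02, 95% interval -0.52 to 0.56, adjusted p = 0.958).

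The promoter windows of Vcl and Zyx, the adaptors with the smallest p, are shown with the same capitals. Vcl lies at chr14:20929148-20929447 and Zyx at chr6:42349578-42349877, both on the plus strand.
Vcl: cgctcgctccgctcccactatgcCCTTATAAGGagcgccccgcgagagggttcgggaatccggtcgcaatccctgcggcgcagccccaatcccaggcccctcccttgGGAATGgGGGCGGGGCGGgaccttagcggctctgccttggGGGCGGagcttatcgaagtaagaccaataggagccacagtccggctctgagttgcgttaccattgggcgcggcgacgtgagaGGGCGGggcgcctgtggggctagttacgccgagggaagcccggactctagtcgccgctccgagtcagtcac
Zyx: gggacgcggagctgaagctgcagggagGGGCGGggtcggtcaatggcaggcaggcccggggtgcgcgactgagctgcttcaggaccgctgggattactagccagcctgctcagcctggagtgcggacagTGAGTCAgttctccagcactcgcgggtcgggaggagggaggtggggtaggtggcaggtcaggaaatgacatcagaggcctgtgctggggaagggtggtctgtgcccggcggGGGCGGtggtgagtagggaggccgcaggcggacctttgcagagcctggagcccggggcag
The Vcl window held a CArG box, which reads the same on both strands, starting 227 bases before the start site, and a match to CATTCC at 143 bases before it. It also held 4 GC boxes, of which a pair shared a base. The Zyx window held TGAGTCA, a match to TGANTCA, at 121 bases before the start site, and 2 GC boxes. Of the 7 lower members with an entry, 1 had a CArG box and 2 had TGANTCA, the latter Zyx and a second start site of Itga3. Of the 4 higher members with an entry, 0 had either. GGGCGG was found in 6 of the 7 lower and in 2 of the 4 higher members, and in 3 of 5 not called and 2 of 8 not tested. Among members not tested, Itgb6 had a CArG box and Itga9 had TGANTCA. Itga3, Bcar1 and Itgb6 had 2 windows each and were counted as 1 gene, so these tallies are not on the per-window scale of the background.

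Tensins link the beta tail to actin in the fibrillar adhesions that assemble fibronectin. Tns3 was at 17.3, 21.2 and 17.2 CPM in 2H-11 and at 33.0, 29.5 and 41.7 CPM in SVEC4-10, with no overlap. It was 2.02-fold lower in 2H-11 (log2 fold change -1.01, SE 0.22, adjusted p = 0.00123). Tns1 stood at 30.1, 23.1 and 21.5 CPM in 2H-11 and at 39.0, 30.9 and 50.6 CPM in SVEC4-10. Its lines nearly met, and it was 1.74-fold lower (log2 fold change -0.80, SE 0.22, adjusted p = 0.00926), but not past the threshold without SVEC4-10 replicate 3 (-0.62, adjusted p = 0.0627).

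The kinase and scaffold genes went both ways. Ptk2 encodes focal adhesion kinase, which is activated when integrins cluster. It was at 58.8, 58.9 and 54.6 CPM in 2H-11 and at 33.7, 34.7 and 38.6 CPM in SVEC4-10, with no overlap and little spread within a line. The gene was 1.5-fold higher in 2H-11 (log2 fold change 0.59, SE 0.19, adjusted p = 0.0209). It did not pass without 2H-11 replicate 1 or 2 (adjusted p = 0.0534 and 0.0975), without SVEC4-10 replicate 1 or 2 (adjusted p = 0.113 and 0.0608) or with no filter on low counts (adjusted p = 0.0767), all by edgeR. Over its 18 alternatives the log2 fold change stayed between 0.47 and 0.72.

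Pxn encodes paxillin, a scaffold and substrate of that kinase. Its level was 25.3, 32.9 and 30.2 CPM in 2H-11 and 19.2, 9.09 and 18.6 CPM in SVEC4-10, where replicate 2 was low. The lines did not overlap, and Pxn was 1.74-fold higher in 2H-11 (log2 fold change 0.80, SE 0.25, adjusted p = 0.0184). It did not pass without 2H-11 replicate 2 (0.72, adjusted p = 0.0792) or without SVEC4-10 replicate 2 (0.53, adjusted p = 0.102). Bcar1 encodes p130Cas, a scaffold that is stretched and phosphorylated at adhesions. It stood at 11, 9.99 and 9.10 CPM in 2H-11 and at 16.8, 11.9 and 23.4 CPM in SVEC4-10, without overlap. It was 1.89-fold lower in 2H-11 (log2 fold change -0.92, SE 0.27, adjusted p = 0.0117), but not past the threshold without SVEC4-10 replicate 3 (-0.65, adjusted p = 0.0996).

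Talin, the adaptor that switches integrins on, did not pass in either of its genes. Tln1 was at 130, 95 and 83.1 CPM (2H-11) and at 126, 86.5 and 124 CPM (SVEC4-10), with overlap (log2 fold change -0.22, 95% interval -0.63 to 0.19, adjusted p = 0.410). Tln2 lay between 4.41 and 9.49 CPM in the 6 libraries (adjusted p = 0.534). Src, the kinase that acts with focal adhesion kinase, lay between 5.61 and 7.38 CPM (log2 fold change 0.07, 95% interval -0.54 to 0.68, adjusted p = 0.882).

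**Figure D5:**
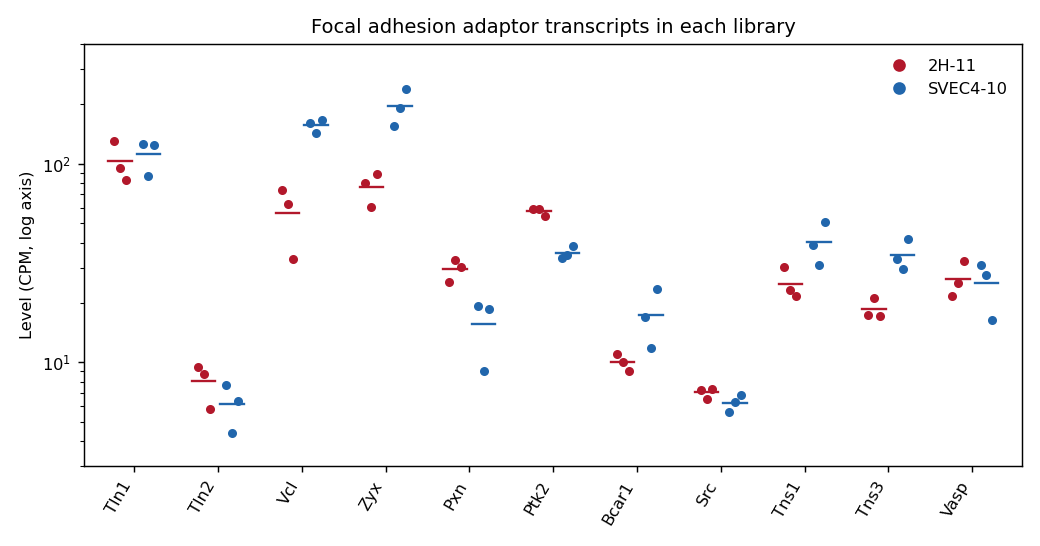
CPM of the 11 focal adhesion adaptors in each library on a log axis, with short bars at the mean of 3 libraries. Vcl and Zyx lie lower in all 2H-11 libraries, Ptk2 and Pxn lie higher, and Tln1, Tln2, Src and Vasp overlap between the lines.

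Other genes of integrin function were counted in the same fit, from lists drawn up by function. Among 20 regulators of integrin activation, 16 were tested, with 2 higher and 3 lower in 2H-11 (31.3% called, median log2 fold change -0.32). The called share was near that of the whole fit, 36.2% of all genes tested and 31.8% of those with Ensembl identifiers. Kank1, a talin-binding protein at the rim of adhesions, was at 0.988 ± 0.631 CPM (2H-11) and 45.4 ± 10.3 CPM (SVEC4-10), 51.0-fold lower (adjusted p = 4.1e-10). Kank1 passed the count filter through the SVEC4-10 libraries alone, where it was high. Apbb1ip, the RIAM protein that brings talin to the membrane, was 4.2-fold higher, at 21.2 ± 7.19 and 4.67 ± 0.763 CPM (adjusted p = 1.78e-05). Fermt2, kindlin-2, which binds the beta tail beside talin, was 1.94-fold lower, at 56.3 ± 5.72 and 102 ± 5.65 CPM (adjusted p = 0.000406).

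Of 42 further focal adhesion genes, 35 were tested, with 6 higher and 6 lower (34.3% called, near the 36.2% of all genes tested). Their median log2 fold change was -0.16. Parvb, beta-parvin, was at 70.5 ± 6.34 CPM in 2H-11 with no count in SVEC4-10 (adjusted p = 3.59e-11). It therefore passed the count filter through the 2H-11 libraries alone. Lims1, the PINCH1 partner of integrin-linked kinase, was 2.91-fold lower, at 90.2 ± 34.9 and 244 ± 17.6 CPM (adjusted p = 3.4e-05). Ptk2b, PYK2, the close relative of focal adhesion kinase, was 11.5-fold lower, at 1.06 ± 0.146 and 11.6 ± 4.61 CPM (adjusted p = 1.22e-06), opposite in direction to Ptk2. Ptk2b passed the count filter through the SVEC4-10 libraries alone, where it was high.

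Of 41 integrin ligand genes, 26 were tested, with 9 higher and 10 lower (73.1% called, beside 36.2% of all genes tested). Their median log2 fold change was -0.32. Spp1, the RGD ligand osteopontin, was 56.7-fold higher in 2H-11, at 508 ± 90.7 and 8.49 ± 1.79 CPM (adjusted p = 3.41e-12). Thbs2 and Col6a3 stood at 44.7 ± 6.28 and 53.4 ± 5.50 CPM in 2H-11, without a count in SVEC4-10. Both passed the count filter through the 2H-11 libraries alone. Fn1, the ligand of alpha5 beta1, stood at 131 ± 12.4 and 171 ± 57.5 CPM, which did not pass (adjusted p = 0.0808). The laminin chain Lama5, a ligand of the alpha3 and alpha6 receptors, was 6.39-fold lower, at 3.98 ± 0.262 and 23.8 ± 5.41 CPM (adjusted p = 3.53e-07). Fn1 and Lama5 were named after their values were seen.

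Of 13 genes for membrane partners of integrins, all were tested, with 3 higher and 8 lower (84.6% called, beside 36.2% of all genes tested). Their median log2 fold change was -0.81. Cd9, a tetraspanin, was 3.92-fold higher, at 374 ± 32.8 and 89.2 ± 12.4 CPM (adjusted p = 7.63e-08). Cav1, caveolin-1, was 3.67-fold lower, at 130 ± 34.0 and 442 ± 76.2 CPM (adjusted p = 8.88e-07). Plaur, the urokinase receptor, was 2.92-fold lower, at 60.9 ± 4.39 and 166 ± 10.6 CPM (adjusted p = 1.25e-06).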

How the data were processed

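Direct RNA libraries (SQK-RNA002) were made from 1 ug of total RNA, per the labels' protocols, and builds mm10 and GRCm38 are named in the submitters' processing notes. The aligner, the counter, its annotation and its use of strand are not given in these sources. The authors deposited raw read counts per gene and the same counts as CPM. The table's 13 malformed lines, which carry no gene name, were dropped. Counts of all genes were fitted with edgeR 4.0.16 in R 4.3.3 (filterByExpr with minimum count 10 and minimum total 15, TMM, quasi-likelihood test, line as the only term), and the script was tested on simulated data. A gene could pass the count filter through the libraries of a single line where it was high, as Upk3b and Krt19 did. SE is the log2 fold change over the square root of F. Positions, overlaps and lengths came from GENCODE M21 on GRCm38, promoters from RefSeq. Ratios of summed counts carry exact 95% intervals, which, like the CPM limits from 0 counts, cover counting error only. In ratios against a line with 0 counts, 3 counts stood for the 0 and the other line was taken as exact. Such a ratio is not a strict lower limit. All 32 members were accounted for. Values per library are given for members past the threshold or at 20 CPM or more in a line, with the 3 smallest p per pathway list and the most abundant gene per marker list. Members and lists were chosen with earlier results of these data known. Alternatives were other tests (DESeq2 1.42.0, limma-voom with limma 3.58.1), size factors, filters, dispersion, thinning, a replicate block, removal of a length trend, Ensembl genes alone and leaving out each library. Tables and figures used Python 3.11.15, pandas 2.3.3, scipy 1.17.1 and matplotlib 3.10.9.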

Additional observations from a re-analysis of the deposited data

How the results depend on the processing

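Of the 14 called members, 14 kept their direction under all alternatives. Of these, 7 (Itga1, Itga3, Itga6, Itgb5, Itgb7, Vcl and Zyx) passed the threshold in every alternative that tested them. These alternatives were 15 for Itgb7 and 18 for the others. Itgb7 fell out of the test with a filter of 20 counts in 3 libraries, after thinning and without 2H-11 replicate 3. The 6 members that did not pass were called by none of the alternatives. Tested against a 2-fold change, 2 members were higher and 5 lower. Leaving out single libraries gave 4 to 6 higher and 6 to 8 lower. With no filter 8 were higher and 10 lower. With the replicate block 5 were higher and 8 lower, and the call not made was Itga2b (log2 fold change 1.29, edgeR adjusted p = 0.0527). Same-numbered libraries of the lines did not deviate together (r across genes from -0.018 to 0.051). Pairs with both transcripts counted in 2H-11 numbered 4 at 5 CPM and 3 at 10 CPM, and 8 to 9 when single libraries were left out; in SVEC4-10 they numbered 6 each time a library was left out. Divided by transcript length, Itga5 held 76.0% of alpha counts in 2H-11 and 43.1% in SVEC4-10. Leaving out libraries, it held 71.6% to 73.3% and 36.3% to 38.7%, and Itgb1 88.1% to 90.1% and 95.9% to 97.1% of beta counts. Depth limits the 12 untested members, which rest on at most 37 counts in a line.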
